A study of Mus musculus with 26 samples.

Results

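Total ChREBP-KO mice were compared here with the WT mice of a different line, the ChREBPβ line, in subcutaneous white adipose tissue (SCWAT) profiled on 1-colour Agilent expression arrays. The arrays were chosen by their sample titles: 7 arrays of the total ChREBP-KO and 7 of the WT of the ChREBPβ line, 14 of the 26 arrays of the series, with 1 array per mouse. The question was which KO effects are also seen when the KO is not set against the WT of its own line. The total ChREBP-KO mice lacked both the α and the β form of ChREBP. The ChREBPβ line was made by CRISPR deletion of exon 1b, the exon specific to the β form, and the WT used here were its undeleted littermates. The WT that the labels assign to the total ChREBP line, 7 further arrays, served as the other reference and are called WT of the total line. The remaining 5 arrays, of the ChREBPβ KO, entered the filter, the normalization and the fit but are not compared here. All mice were C57BL6/J males on a regular diet, fasted for 24 h and then given food again for 18 h together with water holding 20% glucose. Since the KO and the WT of the ChREBPβ line came from different lines, an effect of the KO and a difference between the lines cannot be told apart in this comparison alone, and in whole tissue fewer cells of a type and less RNA per cell cannot be told apart.

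ChREBP, encoded by Mlxipl, is a basic helix-loop-helix transcription factor that senses glucose-derived metabolites and, with its partner Mlx, binds paired E-box motifs called carbohydrate response elements. In liver and fat it is known for driving the genes that turn sugar into fatty acids, among them those for fructose uptake, glycolysis, citrate export, fatty acid synthesis and elongation. The α form is present at baseline, while the shorter β form is made from its own promoter, itself reported to be a ChREBP target. Earlier work reported the β form as the more active one. The paper on these mice proposes instead that it is a weak transactivator. Thermogenic genes such as Ucp1, the uncoupling protein that lets brown and beige adipocytes make heat, vary widely between SCWAT depots, and the inguinal depot holds a lymph node.

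The targeted gene was read first. At the brightest Mlxipl probe (mm9, chr5:135613705-135613764), the log2 intensity in the KO ran from 13.63 through a median of 13.78 to 13.997, and in the WT of the ChREBPβ line from 15.29 through 15.66 to 16.18. No KO array overlapped with a WT array, and the KO was lower by a log2 difference of -1.89 ± 0.13 (SE; adjusted p = 9.53e-11), leaving 27.1% of the WT intensity. Another of the 3 Mlxipl probes differed by -0.52 ± 0.12 (adjusted p = 0.00221), whereas the probe at chr5:135614195-135614252 gave 0.04 ± 0.07 (adjusted p = 0.742). Which part of the transcript each probe reads relative to the deleted part was not analysed here. Against the WT of the total line the brightest probe differed by -2.21, and the WT groups themselves by -0.33 (adjusted p = 0.0465). The array labels and the target gene thus gave the same direction against either reference at 2 of the 3 probes.

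The 14 arrays were of like quality, with a median spot intensity of 59 to 94 units over a median local background of 15 to 19, and 70.2% to 76.1% of spots well above background. Any pair of the 14 arrays correlated across probes with Pearson's r of 0.972 to 0.997. The arrays of the 2 groups were spread over 10 slides and 4 wash batches, and 4 slides held an array of each group. Adipocyte genes were bright in every array: the mean log2 intensity of 18 adipocyte identity genes was 15.57 ± 0.12 (SD, n = 7) in the KO, 15.58 ± 0.04 (n = 7) in the WT of the ChREBPβ line and 14.88 ± 0.20 (n = 7) in the WT of the total line. By this list the KO and the WT of the ChREBPβ line lay close together, and the WT of the total line lay below both.

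Of 25407 genes tested, 8185 (32.2%) were called at an adjusted p of 0.05 between the KO and the WT of the ChREBPβ line, 4193 higher in the KO (16.5%) and 3992 lower (15.7%). With arrays scaled to their 75th percentile 4850 of 8115 calls (59.8%) were higher, against 51.2% here. Against the WT of the total line 11656 genes (45.9%) were called, 6660 higher in the KO and 4996 lower. Counts of list members against the WT of the total line are to be read beside these. The 2 comparisons share the 7 KO arrays, so that their calls are not independent, and the genes below are described by their values against each reference. In all, 3521 genes (13.9%) were called in the same direction against both WT groups, 2213 higher in the KO (8.71%) and 1308 lower (5.15%). These made up 43.0% of the genes called against the WT of the ChREBPβ line and 30.2% of those called against the WT of the total line. A further 1159 genes (4.56%) were called in opposite directions, 3505 were called against the WT of the ChREBPβ line only and 6976 against the WT of the total line only. Changes were mostly modest: with a change of at least 1.5-fold against both references, 914 genes remained, and here more were lower in the KO (555) than higher (359).

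Whether a KO effect differs with the reference is the same test as whether the WT groups differ. This test was passed by 45.6% of all genes. Among the 3521 genes called in the same direction, the WT groups did not pass the test in 2477 (70.3%), while in the other 1044 the size of the KO effect differed with the reference although its direction did not. Of the 6976 genes called against the WT of the total line only, 5242 (75.1%) also differed between the WT groups. Among the genes called in the same direction, 2180 (61.9%) had the larger difference against the WT of the total line.

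**Figure D1:**
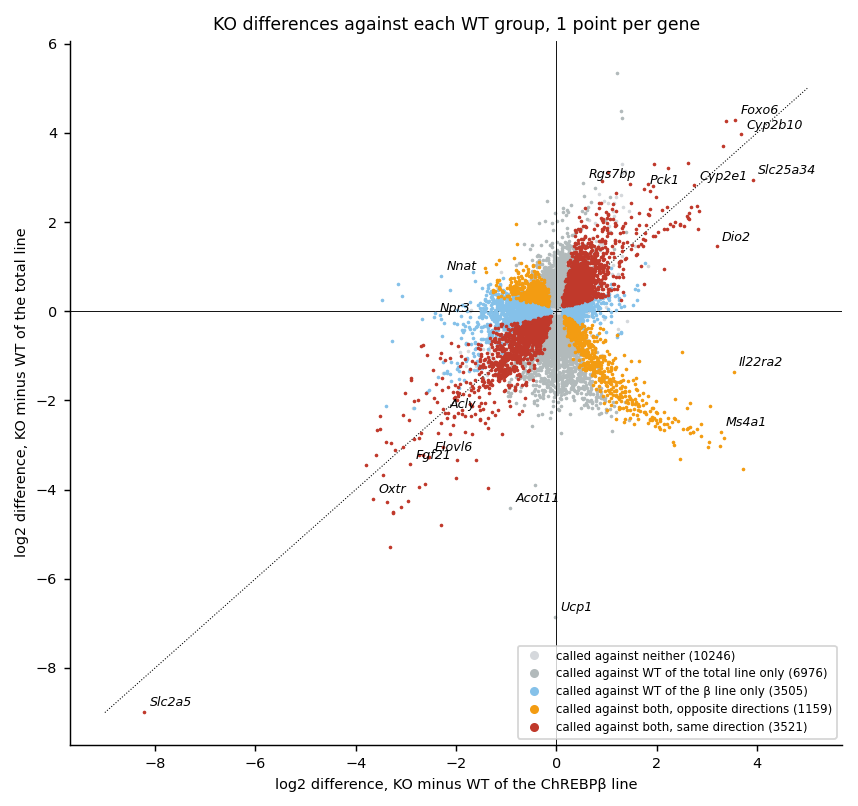
Each point is a gene read at its brightest probe; the x axis is the log2 difference between the KO and the WT of the ChREBPβ line (7 arrays each), the y axis that between the same KO arrays and the WT of the total line (7 arrays), and the dotted line marks equal values. Slc2a5 lies far out at the lower left against both references, Foxo6 and Cyp2b10 at the upper right, Ucp1 near 0 on the x axis but at -6.85 on the y axis, and Il22ra2 and Ms4a1 have opposite signs.

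The gene with the largest fall against both references was Slc2a5, which encodes the fructose transporter GLUT5. Its log2 intensity in the KO had a lowest value of 4.23, a median of 4.60 and a highest value of 7.91, against 12.53, 13.19 and 13.998 in the WT of the ChREBPβ line and 13.79, 14.07 and 14.32 in the WT of the total line. The KO arrays lay below all 14 WT arrays by a wide margin, with replicate 8 the highest of them. The difference was -8.22 ± 0.43 (SE, adjusted p = 7.66e-13) against the WT of the ChREBPβ line and -8.98 against the WT of the total line, and the WT groups did not pass the test of their difference (adjusted p = 0.157). The probe was well above background on 2 of the 7 KO arrays, so the size of the fall is not exact.

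The 20 leading genes, 10 rises and 10 falls, were those with the largest change against whichever reference gave the smaller one, among named genes whose 7 KO arrays overlapped with none of the 14 WT arrays. Such separation held for 2868 genes (11.3%) against the WT of the ChREBPβ line, and for 1002 genes (3.94%) that were also separate from the WT of the total line and called in the same direction. After Slc2a5, the falls were led by Oxtr, the oxytocin receptor, whose KO arrays ran from 7.401 through 8.28 to 9.17 and whose WT arrays of the ChREBPβ line ran from 11.19 through 11.97 to 12.54. Its difference was -3.65 ± 0.25 (adjusted p = 4.82e-11) against this WT and -4.20 against the WT of the total line. Pth1r, the parathyroid hormone receptor, fell by 2.96 ± 0.29 on the log2 scale (adjusted p = 5.03e-08) and Ntrk3, the neurotrophin-3 receptor, fell by 3.10 ± 0.26 (adjusted p = 2.15e-09). For both, the WT of the ChREBPβ line was itself below the WT of the total line, by -1.30 and -1.28, so that their falls against the latter were larger (-4.26 and -4.39).

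For Oscp1, Dixdc1 and Bmyc the WT groups passed no test of their difference. Bmyc, a Myc family gene, had a log2 intensity of 8.18 to 8.91 in the KO, with a median of 8.51, and of 11.17 to 11.84 in the WT of the ChREBPβ line, with a median of 11.57. Its differences were -3.06 ± 0.14 (adjusted p = 3.84e-14) and -3.05 against the WT of the total line. Dixdc1, which encodes a DIX domain protein of Wnt signalling, differed by -3.45 and -3.68, and Oscp1 by -3.80 and -3.45. Adcy10, the soluble adenylyl cyclase, fell by 3.26 ± 0.29 against the WT of the ChREBPβ line (adjusted p = 1.02e-08), and its other 3 probes were lower too, with differences of -3.18 to -0.95. Gm35986 and Prss35, a serine protease family member, exceeded background clearly on all WT arrays and on none of the KO arrays. They were therefore lower by at least 9.26-fold and 8.74-fold than in the WT of the ChREBPβ line (adjusted p = 1.99e-09 and 3.77e-09), taking the dimmest measured signal of each KO array or the signal of the probe itself, whichever was higher. The other Prss35 probes, dimmer, gave -0.81 (adjusted p = 6.74e-05) and -0.30 (adjusted p = 0.0503).

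Of the 10 leading rises, 3 were enzymes of the cytochrome P450 family. Cyp2b10, a xenobiotic-inducible enzyme, ran from 10.07 through 10.52 to 10.92 in the KO and from 5.78 through 6.22 to 8.77 in the WT of the ChREBPβ line. The KO arrays lay close together and above all WT arrays, while the WT arrays were widely spread (SD 1.17 against 0.32 in the KO). The difference was 3.68 ± 0.38 (adjusted p = 1.11e-07), and 3.97 against the WT of the total line. Cyp2b9, a close relative, differed by 3.32 ± 0.34 (adjusted p = 8.59e-08), and Cyp2e1, the ethanol-oxidising enzyme, by 2.73 ± 0.33 (adjusted p = 9.70e-07). Cyp2e1 was at 17.58 to 17.93 in the KO and at 13.74 to 16.05 in the WT of the ChREBPβ line. For all 3 enzymes the WT groups did not pass the test of their difference (adjusted p = 0.572, 0.367 and 0.844).

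Foxo6, a forkhead transcription factor, was at 10.24 to 11.41 in the KO, with a median of 10.74, and at 6.77 to 7.96 in the WT of the ChREBPβ line, with a median of 6.96. It was 11.8-fold higher in the KO, a log2 difference of 3.56 ± 0.19 (adjusted p = 1.30e-12), and the other member of the family to rise against both references, Foxo1, differed by 0.71 and 0.41. Slc25a34, a mitochondrial carrier, was 15.1-fold higher than in the WT of the ChREBPβ line (3.91 ± 0.21, adjusted p = 9.78e-13), and here the rise was larger than against the WT of the total line (2.95). A dimmer Slc25a34 probe gave 0.13, and a dimmer probe of Unc93a, which otherwise rose by 3.37 ± 0.19, gave -0.05. Hydin, a gene of motile cilia, rose by 2.63 and Fndc5, which encodes the precursor of irisin, by 2.68. Mup11 and Mup6, of the major urinary proteins, differed by 2.81 and 2.84, but these genes have many near-identical copies that a probe may not tell apart, and a dimmer Mup6 probe gave 0.06. In 6 of the 10 leading rises and 5 of the 10 leading falls the WT groups passed no test of their difference.

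**Figure D2:**
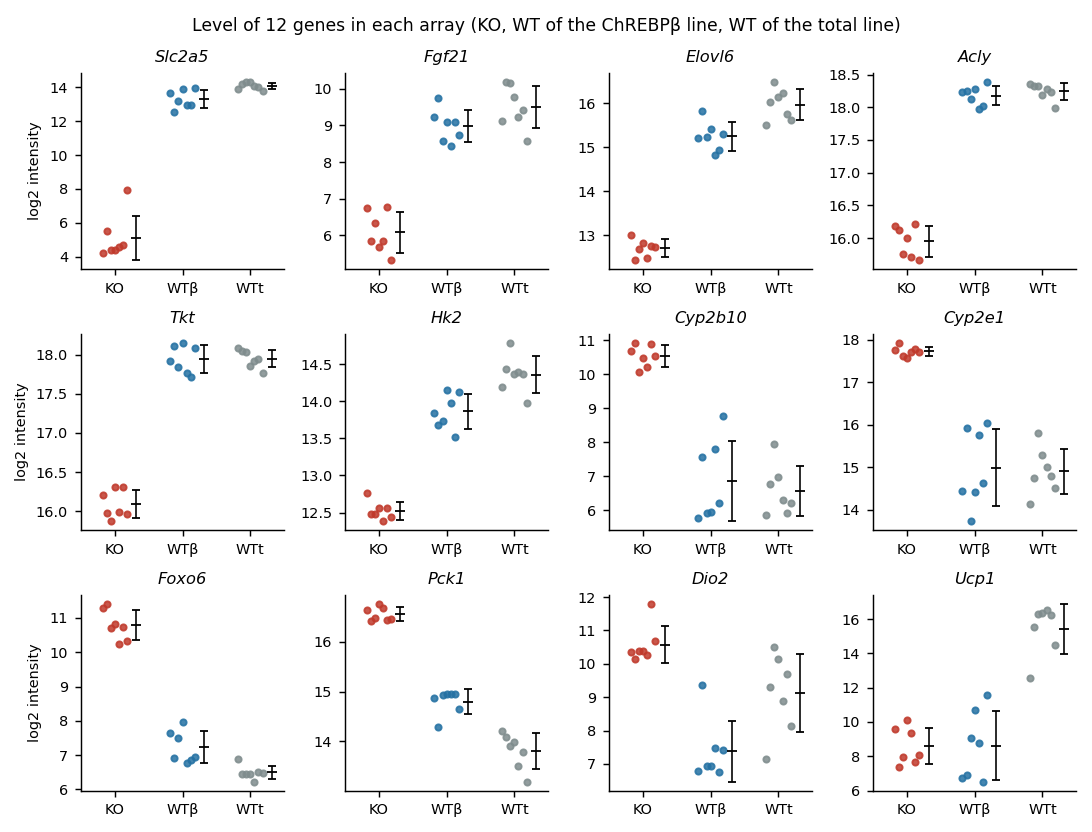
Log2 intensity of 12 genes in each array of the KO, the WT of the ChREBPβ line (WTβ) and the WT of the total line (WTt); points are arrays (7 per group) and bars the mean ± SD. The KO points of Slc2a5, Fgf21, Elovl6, Acly, Tkt and Hk2 lie below and those of Cyp2b10, Cyp2e1, Foxo6 and Pck1 above both WT groups, while Ucp1 in the KO overlaps with WTβ and lies below WTt.

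Slides offered a comparison within a technical unit. On the 4 slides that held a KO array and a WT array of the ChREBPβ line, the sign of the 20 leading genes was fixed by their choice, since their KO and WT arrays do not overlap, and only the sizes are described. Slc2a5 differed between the paired arrays by -9.40 to -5.07, Foxo6 by 3.28 to 3.96 and Cyp2b10 by 1.44 to 4.99. Over the 3521 genes called in the same direction against both references, 2796 (79.4%) kept their direction on all 4 slides, against 32.9% of all genes, and 2510 of the 3505 genes called against the WT of the ChREBPβ line only did so (71.6%). These slides are part of the fit, so the shares describe the arrays and are no separate test.

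**Figure D3:**
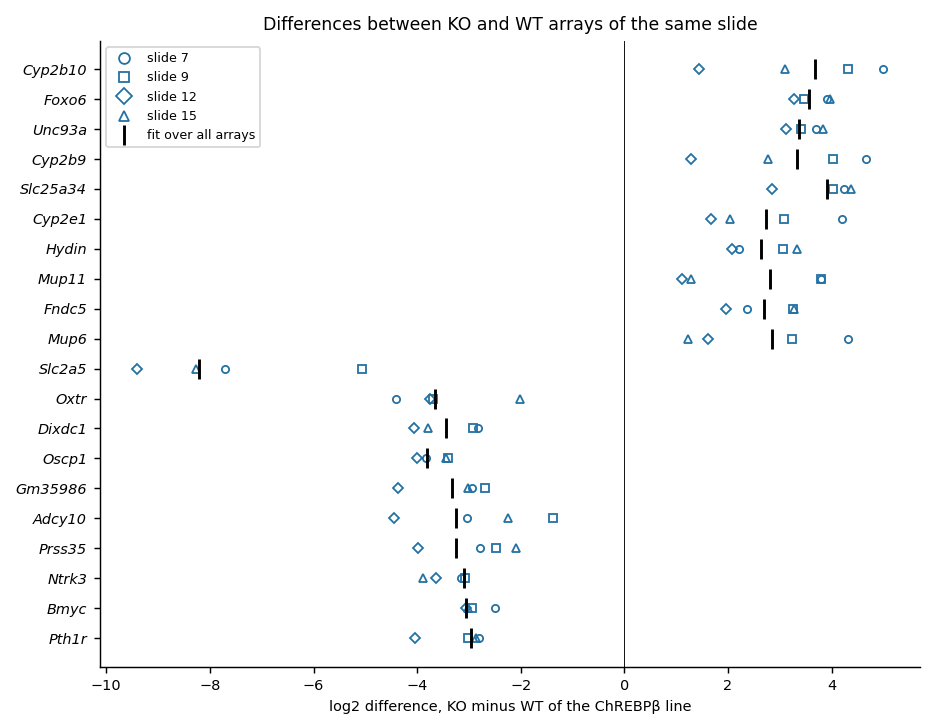
Log2 difference between the KO array and the array of the WT of the ChREBPβ line that shared a slide, for the 20 leading genes; open symbols are 4 slides (numbered here in an arbitrary order) and black bars the difference fitted over all arrays. The genes were chosen for separate KO and WT arrays, which fixes the side of 0 on which each symbol lies, and the spread of the symbols shows the sizes, with Slc2a5 between -9.40 and -5.07.

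Several genes of sugar use were lower along with Slc2a5. Of 23 genes of hexose uptake and glycolysis tested, 11 were lower, 5 higher and 7 not called against the WT of the ChREBPβ line, beside 15.7% lower and 16.5% higher over all genes. Against both references 11 were lower and 2 higher. Their median difference was -0.38 against the WT of the ChREBPβ line and -0.45 against the WT of the total line, beside 0.03 and 0.05 over all genes. Hk2, the inducible hexokinase, ran from 12.39 through 12.48 to 12.76 in the KO and from 13.52 through 13.85 to 14.15 in the WT of the ChREBPβ line, with no overlap. It fell by 1.34 ± 0.11 (adjusted p = 2.72e-09), and by 1.84 against the WT of the total line. Eno1, which encodes enolase, fell by 1.36 ± 0.09 (adjusted p = 1.50e-11) and Pkm, pyruvate kinase, by 1.01 ± 0.13 (adjusted p = 1.97e-06), the latter with the KO array of replicate 7 at 15.69 inside the WT range. Slc2a4, the insulin-responsive glucose transporter GLUT4, differed by -0.81 ± 0.10 (adjusted p = 8.97e-07) and by the same -0.81 against the WT of the total line. A dimmer Slc2a4 probe gave -0.17 against the WT of the ChREBPβ line (adjusted p = 0.385). The members that rose against both references were Tpi1 and Pfkfb1, by 0.52 and 0.45 against the WT of the ChREBPβ line.

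In the pentose phosphate pathway, which yields ribose and NADPH, Tkt (transketolase) had the largest difference of the 10 genes tested. It ran from 15.87 through 15.98 to 16.31 in the KO and from 17.72 through 17.92 to 18.15 in the WT of the ChREBPβ line. The difference was -1.85 ± 0.09 (adjusted p = 1.43e-13), and -1.86 against the WT of the total line. Tkt was the only member called lower against both references, and Pgm2 the only one called higher (0.38 and 0.65). The array uses some older symbols, and whether its Pgm2 is the gene that now has this name was not checked. H6pd was lower than in the WT of the ChREBPβ line only (-0.48, adjusted p = 5.01e-05), and G6pdx, the first enzyme of the pathway, gave 0.27 (adjusted p = 0.130), but 0.66 (adjusted p = 0.00165) with the mean lymphocyte and skeletal muscle levels as covariates. In all, 3 of the 10 were lower and 1 higher than in the WT of the ChREBPβ line (40.0% called, beside 32.2% of all genes), whereas 1 was lower and 3 were higher than in the WT of the total line.

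De novo lipogenesis had the highest share of genes called in the same direction against both references, 68.2% of 22 tested, among the lists examined, beside 13.9% of all genes. Here 12 members were lower and 5 higher than in the WT of the ChREBPβ line, and 11 lower and 4 higher against both, with a median difference of -0.40 against the WT of the ChREBPβ line and -0.49 against the WT of the total line. Elovl6, the elongase that makes C18 fatty acids, ran from 12.44 through 12.73 to 13.01 in the KO and from 14.83 through 15.24 to 15.83 in the WT of the ChREBPβ line. It was 5.82-fold lower, a log2 difference of -2.54 ± 0.15 (adjusted p = 7.49e-12). Acly, which cleaves citrate to cytosolic acetyl-CoA, ran from 15.66 through 16.00 to 16.21 against 17.97, 18.24 and 18.38, a difference of -2.23 ± 0.10 (adjusted p = 3.84e-14). Neither gene had overlapping arrays, and the fall of Acly was alike against the WT of the total line (-2.29), whereas that of Elovl6 was larger there (-3.26, WT groups apart with an adjusted p of 0.000474).

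Other steps of the route were lower too. Pdha1, a subunit of the pyruvate dehydrogenase complex, differed by -1.28 ± 0.12 (adjusted p = 1.07e-08), and Slc25a1, the mitochondrial citrate carrier, by -1.16 ± 0.20 (adjusted p = 8.82e-05). Acaca, acetyl-CoA carboxylase, differed by -2.05 ± 0.12 (adjusted p = 4.28e-12) with its other 6 probes at -2.67 to -0.50, and Thrsp, the lipogenic Spot 14 protein, by -1.54 ± 0.08 (adjusted p = 4.69e-13). For these 4 genes the differences against the WT of the total line were -1.26, -1.27, -1.94 and -1.41, and the WT groups passed no test of their difference. Fasn and Scd1, looked up after the values were known, moved far less: Fasn, fatty acid synthase, fell by 0.24 (adjusted p = 0.00483) and Scd1, the stearoyl-CoA desaturase, gave 0.13 (adjusted p = 0.347). Srebf1, encoding another lipogenic transcription factor, was lower than in the WT of the ChREBPβ line (-0.56, adjusted p = 0.000730) but not called against the WT of the total line (-0.12). The desaturases Fads1, Fads2 and Scd2 and Mlycd, which breaks down malonyl-CoA, were the members called higher against both references.

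Among 19 genes tied to ChREBP and glucose sensing, 9 were lower and 4 higher than in the WT of the ChREBPβ line (68.4% called, beside 32.2% of all genes). Against both references 8 were lower and 3 higher (57.9% in the same direction, beside 13.9% of all genes). The median difference was -0.24 against the WT of the ChREBPβ line and -0.47 against the WT of the total line. Fgf21, a secreted metabolic hormone and known ChREBP target, ran from 5.32 through 5.85 to 6.78 in the KO and from 8.45 through 9.09 to 9.75 in the WT of the ChREBPβ line. It was 7.54-fold lower (-2.92 ± 0.28, adjusted p = 2.83e-08), without overlap. Bhlhe40, a repressor of the same helix-loop-helix class, fell by 1.97 ± 0.21 (adjusted p = 1.25e-07), Rgs16, a regulator of G protein signalling, by 1.53 ± 0.24 (adjusted p = 3.42e-05), and Gckr differed by -2.40 ± 0.57 (adjusted p = 0.00240) with overlapping arrays. The call of Gckr was lost with the slide as a fixed block (adjusted p = 0.0761), and its differences within slides reached 0.52. Txnip, a classical glucose-responsive gene also looked up afterwards, differed by -0.24 (adjusted p = 0.0407) and by 0.01 against the WT of the total line.

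Promoter sequences of genes that fell against both references are shown to place the E-box letters that ChREBP is known to bind. In RefSeq windows of 300 bases around the start site (GRCm38.p6), the letters CACGTG, which read alike on both strands, were found in 7.15% of 32851 windows. They were found in 98 of 723 genes with a window that were called lower against both references (13.6%), in 157 of 1356 called higher (11.6%) and in 10.3% of 13590 tested genes with a window. The shares among genes that fell and genes that rose were thus within a few percentage points of that of all tested genes, and no test was made of them. A spaced pair, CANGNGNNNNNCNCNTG, a loosened form of the carbohydrate response element that is its own reverse complement, was found in 9 of the 723 (1.24%), 10 of the 1356 (0.737%) and 0.721% of the tested genes. The last 120 bases before the start site follow, 5′ to 3′ on the strand of the gene, for Fgf21, Oxtr and Mlxipl, where CACGTG (in capitals) begins 50, 43 and 98 bases before the start site, and for Slc2a5, the largest fall, whose window held neither motif. Mlxipl is the gene targeted in the KO. Its window shown is the one of its listed windows that held the letters, and it lies upstream of the other. The paper places the promoter of the β form upstream of the one known before. Which form the window shown belongs to was not analysed here.
Fgf21 (GRCm38.p6, chr7:45615491-45615610, minus strand): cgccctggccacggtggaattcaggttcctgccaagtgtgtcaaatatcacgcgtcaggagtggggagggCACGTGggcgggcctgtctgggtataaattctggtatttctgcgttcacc
Oxtr (GRCm38.p6, chr6:112489826-112489945, minus strand): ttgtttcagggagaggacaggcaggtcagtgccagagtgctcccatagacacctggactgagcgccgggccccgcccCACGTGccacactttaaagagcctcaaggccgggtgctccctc
Mlxipl (GRCm38.p6, chr5:135089770-135089889, plus strand): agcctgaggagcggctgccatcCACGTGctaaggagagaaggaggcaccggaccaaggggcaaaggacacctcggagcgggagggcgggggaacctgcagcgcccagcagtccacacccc
Slc2a5 (GRCm38.p6, chr4:150119224-150119343, plus strand): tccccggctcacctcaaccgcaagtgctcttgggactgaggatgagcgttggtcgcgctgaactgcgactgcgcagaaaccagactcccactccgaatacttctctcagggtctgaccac

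Of 15 triglyceride assembly genes, 5 were higher, 1 was lower and 9 were not called against the WT of the ChREBPβ line (40.0% called, beside 32.2% of all genes), with a median of 0.08. Pck1, the glyceroneogenic enzyme PEPCK, ran from 16.42 through 16.48 to 16.76 in the KO and from 14.28 through 14.93 to 14.95 in the WT of the ChREBPβ line. It was 3.37-fold higher (1.75 ± 0.18, adjusted p = 6.92e-08) and the rise was larger against the WT of the total line (2.74, WT groups apart with an adjusted p of 6.79e-05). The acyltransferases Gpat3 and Gpat4, listed on the array as Agpat9 and Agpat6, rose by 1.11 ± 0.13 (adjusted p = 4.08e-07) and 0.42 ± 0.06 (adjusted p = 1.36e-05), and Dgat1, which adds the last acyl chain, by 0.64 ± 0.11 (adjusted p = 8.85e-05). These 4 were the members of the 15 triglyceride assembly genes called higher against both references, and none was called lower against both. Gyk, glycerol kinase, was higher than in the WT of the ChREBPβ line only (0.94, adjusted p = 0.000525), and Lpin1 gave -0.20 (adjusted p = 0.175).

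Of 20 genes of lipolysis and lipid droplets, 5 were higher and 4 lower than in the WT of the ChREBPβ line (45.0% called, beside 32.2% of all genes), with 5 higher and 2 lower against both references (35.0%, beside 13.9% of all genes). The β-adrenergic receptors went different ways: Adrb3, the adipocyte form, rose by 0.88 ± 0.13 (adjusted p = 9.96e-06), and Adrb1 fell by 1.42 ± 0.16 (adjusted p = 2.58e-07), each without overlap with either WT group. Abhd5, the activator of adipose triglyceride lipase, rose by 0.92 ± 0.13 (adjusted p = 9.03e-06) and Cidec, a lipid droplet fusion protein, by 0.54 ± 0.13 (adjusted p = 0.00256), whereas Plin2, which coats lipid droplets, fell by 1.02 ± 0.14 (adjusted p = 6.13e-06). Dimmer Abhd5 probes gave 0.98 (adjusted p = 4.25e-05) and 0.24 (adjusted p = 0.297). Npr3, the natriuretic peptide clearance receptor, behaved differently: it was lower than in the WT of the ChREBPβ line (-2.44 ± 0.38, adjusted p = 3.04e-05), in which it ran from 12.42 to 14.68, but gave -0.14 against the WT of the total line, with the WT groups apart by 2.30 (adjusted p = 2.49e-05).

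Of 17 fatty acid oxidation genes tested, 13 were higher, none lower and 4 not called against the WT of the ChREBPβ line (median 0.51), beside 16.5% higher over all genes. Against the WT of the total line 9 were higher, 3 lower and 5 not called (median 0.32), and 8 were higher against both. Ppara, the transcription factor of fatty acid catabolism, ran from 11.20 through 11.61 to 12.04 in the KO and from 9.74 through 9.78 to 10.11 in the WT of the ChREBPβ line. It was 3.23-fold higher (1.69 ± 0.17, adjusted p = 9.33e-08) and 1.02 higher on the log2 scale than in the WT of the total line. Cpt2, of the mitochondrial carnitine shuttle, differed by 0.92 against each reference (adjusted p = 3.54e-07 and 1.13e-07). The peroxisomal enzymes Acaa1a and Ehhadh rose by 0.65 and 0.58 and the mitochondrial dehydrogenase Acadl by 0.88. Cpt1b, the muscle and brown fat carnitine palmitoyltransferase, was called in opposite directions (0.90 and -1.57), but with the slide as a fixed block the first was no longer called (0.92, adjusted p = 0.0850).

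Sterol synthesis genes showed a rise that depended in part on the reference. Of 21 tested, 13 were higher and 1 was lower than in the WT of the ChREBPβ line (median 0.51, 66.7% called, beside 32.2% of all genes). Against the WT of the total line 7 were higher and 3 lower (median 0.07). Against both, 6 were higher (28.6% in the same direction, beside 13.9% of all genes). Insig1, the sterol sensor of the endoplasmic reticulum, differed by 1.30 ± 0.17 (adjusted p = 2.99e-06) and 1.13. Msmo1 differed by 0.66 and 0.54, and Hmgcs1, HMG-CoA synthase, by 0.51 and 0.98, the former not called with the slide as a fixed block (adjusted p = 0.0614). Dimmer probes gave 0.82 and -0.03 for Msmo1 and 0.45 for Hmgcs1 (adjusted p = 8.90e-05, 0.915 and 0.156). By contrast, Mvd and Idi1, of the mevalonate steps, rose by 0.77 and 0.73 against the WT of the ChREBPβ line and gave -0.04 and 0.07 against the WT of the total line; the WT groups differed in both genes (adjusted p = 0.000286 and 0.000100).

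Beside the P450 enzymes already described, the list of 14 xenobiotic response genes held Cyp2f2, which rose against both references (1.17 ± 0.22, adjusted p = 0.000291, and 1.91). No member was called lower against both. Cyp1a1, a target of the aryl hydrocarbon receptor, and Cyp2a5 were lower than in the WT of the ChREBPβ line only (-2.42 and -2.28, adjusted p = 0.00176 and 0.0214), with overlapping arrays. Both calls were lost with the slide as a fixed block (adjusted p = 0.0994 and 0.170) and with the lymphocyte and muscle covariates (adjusted p = 0.0865 and 0.0935). Nr1i3, the nuclear receptor CAR that induces Cyp2b10 in liver, gave -0.01 against the WT of the ChREBPβ line (adjusted p = 0.984). Among 16 genes of Foxo factors and insulin signalling, 2 were higher and 3 lower than in the WT of the ChREBPβ line (31.2% called, near the 32.2% of all genes). Of these 16, 9 were higher and none lower than in the WT of the total line, beside 6660 higher and 4996 lower of all 25407 genes. Foxo6 and Foxo1 were those called higher against both. Grb14, an inhibitor of the insulin receptor, was lower than in the WT of the ChREBPβ line (-1.51 ± 0.26, adjusted p = 8.70e-05) but gave 0.01 against the WT of the total line. Pik3r1 gave -0.43 (adjusted p = 0.0816), and was called without replicate 5 of the KO (adjusted p = 0.0216).

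**Figure D4:**
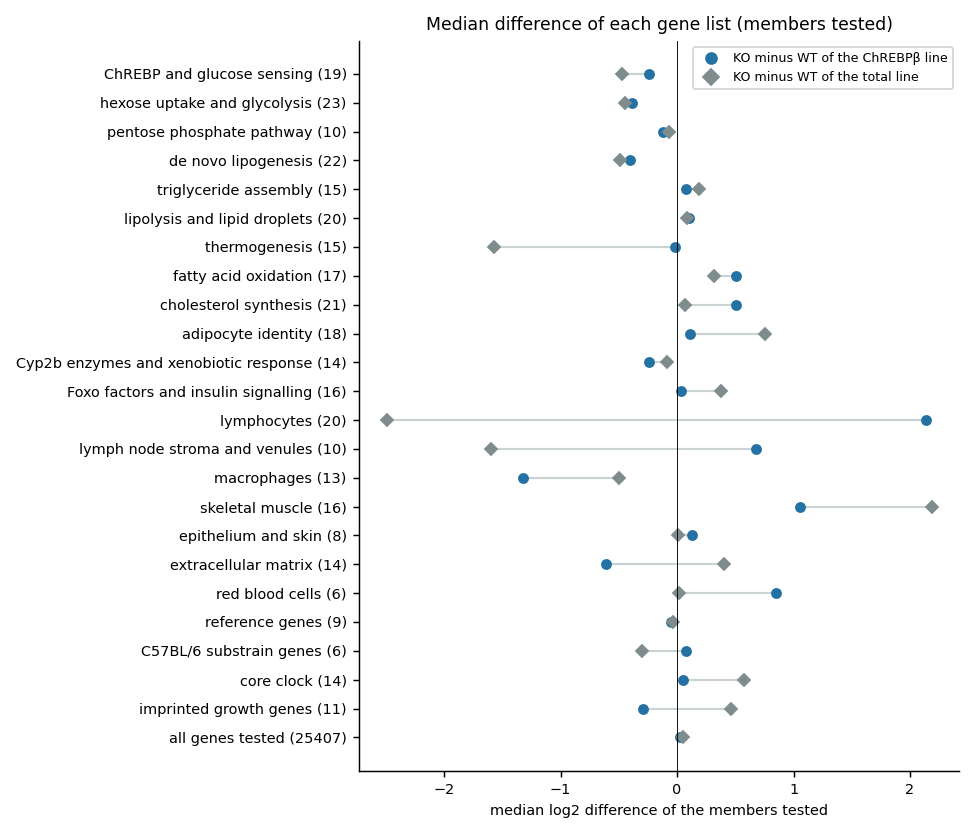
Median log2 difference over the tested members of each gene list (their number in brackets), for the KO minus the WT of the ChREBPβ line (circles) and minus the WT of the total line (diamonds). Lipogenesis and glycolysis lie left of 0 in both, while lymphocyte genes lie at 2.14 and -2.49 and thermogenesis genes at -0.02 and -1.57.

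Thermogenic genes included several that were called against the WT of the total line only. The level of Ucp1 is given as a description, since the WT of the ChREBPβ line was characterised by its low Ucp1. The KO ran from 7.38 through 8.10 to 10.098, the WT of the ChREBPβ line from 6.51 through 8.77 to 11.58, and the WT of the total line from 12.57 through 16.25 to 16.55. The KO overlapped with the WT of the ChREBPβ line over most of its range and lay below all arrays of the WT of the total line. Of the 15 thermogenesis genes tested, 4 were higher and 4 lower than in the WT of the ChREBPβ line (53.3% called, beside 32.2% of all genes). Of these 15, 8 were lower than in the WT of the total line, beside 4996 of all 25407 genes. In 11 of the 15 the WT of the ChREBPβ line was called below the WT of the total line, beside 4874 of all 25407 genes. The choice of a reference with low Ucp1 thus limits these counts too. Kcnk3, a potassium channel, was the only member lower against both (-1.63 ± 0.15, adjusted p = 1.13e-08, and -2.30). Elovl3, Cidea, Cox7a1 and Otop1, looked up afterwards, differed by -3.90, -1.96, -1.78 and -2.01 from the WT of the total line and by -0.43, -0.27, 0.67 and -0.45 from the WT of the ChREBPβ line, where none of the 4 was called.

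Some thermogenic genes were higher in the KO. Dio2, the deiodinase that activates thyroid hormone, ran from 10.15 through 10.38 to 11.80 in the KO and from 6.77 through 6.95 to 9.36 in the WT of the ChREBPβ line, without overlap. It was 9.14-fold higher (3.19 ± 0.46, adjusted p = 8.95e-06), and also higher than in the WT of the total line (1.46), with which it overlapped. Cox8b, a cytochrome oxidase subunit of brown fat and muscle, was higher than in the WT of the ChREBPβ line (1.56 ± 0.23, adjusted p = 1.18e-05) and gave 0.50 against the WT of the total line. Acot11, a thioesterase induced in brown fat by cold, was -4.41 below the WT of the total line and -0.92 from the WT of the ChREBPβ line (adjusted p = 0.0834), where it was called when replicate 2 or replicate 7 of that WT was left out (adjusted p = 0.0148 and 0.0402).

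Lymphocyte genes turned their direction with the reference. All 20 tested were higher than in the WT of the ChREBPβ line and lower than in the WT of the total line, with medians of 2.14 and -2.49. Over all genes 4.56% were called in opposite directions. Averaged per array, their log2 intensity ran from 7.25 to 8.33 in the WT of the ChREBPβ line, whereas the WT of the total line had 10.99 to 12.61. The KO arrays overlapped with both WT groups. Replicates 1, 7 and 4 were at 7.92, 7.92 and 8.59 and replicates 5, 2, 8 and 3 at 10.41 to 11.32. Ms4a1, the B cell antigen CD20, differed by 3.28 and -2.70 and Fcmr, the receptor of immunoglobulin M, by 3.27 and -3.02. The list of lymph node stroma and venules followed in part. Ccl21a, a chemokine of lymphatic vessels and T cell zones, differed by 3.72 and -3.53. Fcer2a, which is in this list but is not specific to stroma, differed by 2.72 and -2.72. With the lymphocyte and muscle covariates, Ccl21a and Fcer2a gave -0.12 and 0.34 against the WT of the ChREBPβ line, neither called. Fcmr gave 0.61, not called, but it is 1 of the 20 genes averaged in the lymphocyte covariate. Its value is therefore no separate test. Cxcl13 was lower against both (-1.47, adjusted p = 0.0372, and -2.19). The first call was lost without replicate 3, 6 or 8 of the WT of the ChREBPβ line or replicate 1, 4, 5 or 7 of the KO (adjusted p of 0.0558 to 0.0858). Ccl19 gave 1.1005 (adjusted p = 0.0994) and -2.70, and the first was called without replicate 1, 4 or 7 of the KO (adjusted p of 0.0208 to 0.0414). These replicates had the lowest lymphocyte means of the KO. With the covariates, Ccl19 was called lower than in the WT of the ChREBPβ line (-1.001, adjusted p = 0.0195).

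Genes called against the WT of the ChREBPβ line but not in the same direction against the other reference included genes of immune cells. The 5 leading rises with separate arrays were Il22ra2, the soluble receptor of interleukin 22, Ly6d and Spib of B cells, Marco, a scavenger receptor, and Prg3, an eosinophil granule protein. Il22ra2 ran from 7.42 through 8.58 to 10.29 in the KO and from 4.92 through 5.24 to 5.58 in the WT of the ChREBPβ line, a difference of 3.53 ± 0.44 (adjusted p = 1.49e-06), but was -1.35 below the WT of the total line. Ly6d, Spib, Marco and Prg3 rose by 3.06, 2.88, 2.602 and 2.51 and were likewise lower than in the WT of the total line. The mean lymphocyte level moves with these genes. With it and the mean skeletal muscle level as covariates, the differences of Il22ra2, Ly6d, Spib, Marco and Prg3 were 2.31, 1.27, 0.67, 1.96 and 2.02 (adjusted p of 2.06e-05 to 0.0162). The 5 leading falls were an immunoglobulin kappa variable segment (-3.16), whose relatives a probe may also read, 1700047G03Rik (-2.67), Npr3 (-2.44), the mast cell protease Cpa3 (-2.31) and the Fc receptor Fcgr1 (-2.25), none of which was called against the WT of the total line (adjusted p of 0.103 to 0.795).

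Of 13 macrophage genes, 8 were lower, none higher and 5 not called against the WT of the ChREBPβ line (median -1.33), beside 15.7% lower over all genes, against 4 lower than in the WT of the total line (median -0.50), and 2 were lower against both: Cd68, a lysosomal glycoprotein, by -1.53 ± 0.36 (adjusted p = 0.00215) and -1.12, and Lyz2, lysozyme, by -0.76 (adjusted p = 0.0129) and -0.84. Mrc1, the mannose receptor, and Adgre1, the F4/80 antigen, fell by 1.73 ± 0.25 (adjusted p = 1.27e-05) and 1.66 ± 0.34 (adjusted p = 0.000593) and gave -0.40 and -0.59 against the WT of the total line. Of 14 extracellular matrix genes, 9 were lower and 5 not called against the WT of the ChREBPβ line (median -0.61, 64.3% called, beside 32.2% of all genes). None was lower and 7 were higher than in the WT of the total line (median 0.40), beside 6660 higher of all 25407 genes. In opposite directions, 4 were called. Fn1, fibronectin, and Col1a1, collagen I, fell by 1.21 (adjusted p = 0.00665) and 1.19 (adjusted p = 0.000681) against the WT of the ChREBPβ line. In 12 of the 14 the WT of the ChREBPβ line was called above the WT of the total line, beside 6712 of all 25407 genes.

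**Figure D5:**
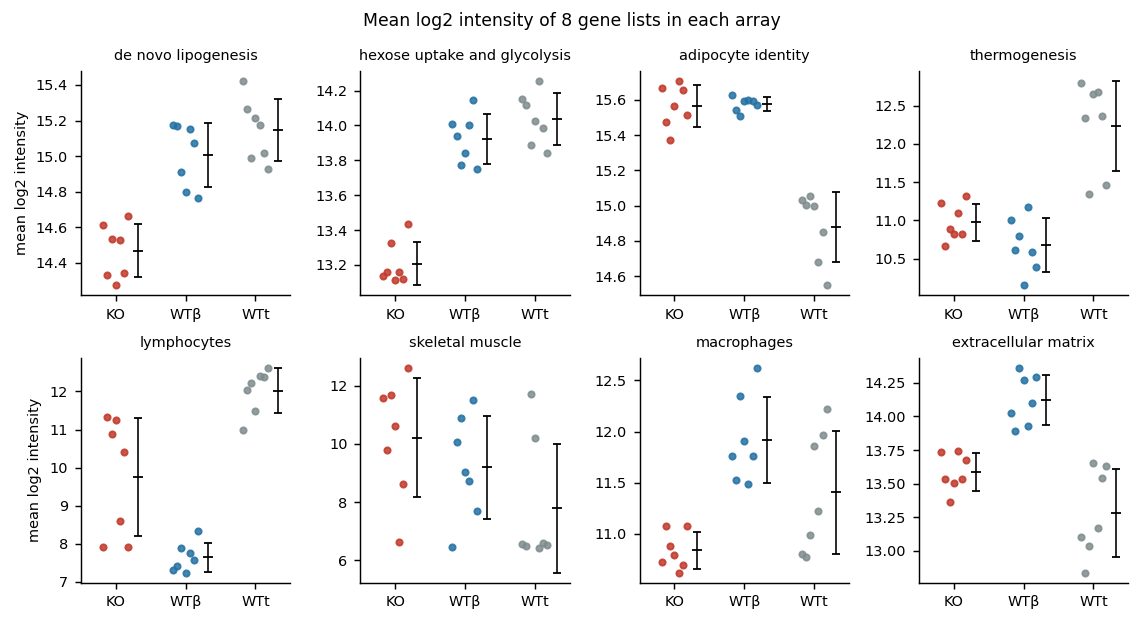
Mean log2 intensity of the members of 8 gene lists in each array of the KO, the WT of the ChREBPβ line (WTβ) and the WT of the total line (WTt); points are arrays (7 per group), bars the mean ± SD. Lipogenesis and glycolysis genes in the KO lie below both WT groups, and extracellular matrix genes in the KO lie below WTβ. Lymphocyte genes in the KO (7.92 to 11.32) overlap with WTβ at the low end and with WTt at the high end.

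Of 18 adipocyte identity genes, 7 were higher and 2 lower than in the WT of the ChREBPβ line (50% called, beside 32.2% of all genes; median 0.11), and 44.4% were called in the same direction against both references, beside 13.9% of all genes. Against the WT of the total line 14 were higher and 1 lower (median 0.75), beside 6660 higher and 4996 lower of all 25407 genes. Acsl1, Cebpa and Lpl, genes of fatty acid activation, adipocyte differentiation and lipid uptake, rose against both, by 0.70 and 1.44, 0.51 and 1.19, and 0.42 and 1.53, and in each the WT of the ChREBPβ line was above the WT of the total line. Lep, leptin, gave -0.34 (adjusted p = 0.119). Of 11 imprinted growth genes, 5 were lower and 1 was higher than in the WT of the ChREBPβ line (54.5% called, beside 32.2% of all genes). None was lower and 7 were higher than in the WT of the total line, beside 6660 higher of all 25407 genes. Among those named, Mest and Nnat had the largest falls, with differences of -3.29 (adjusted p = 0.000215) and -2.30 (adjusted p = 0.00242), with a wide spread in the WT of the ChREBPβ line (7.81 to 12.50 for Mest). Plagl1 was called higher against both, by 0.45 (adjusted p = 0.0405) and 2.11, but against the WT of the ChREBPβ line the call was lost without replicate 1, 3, 4, 6 or 8 of that WT or replicate 1, 2, 3, 4 or 5 of the KO (adjusted p of 0.0506 to 0.0847). Dimmer Plagl1 probes gave 0.02 and 0.06.

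The core clock genes hardly differed from the WT of the ChREBPβ line: Per1 was the only one of 14 called (7.14%, beside 32.2% of all genes), with a rise of 1.03 (adjusted p = 2.71e-05). A dimmer Per1 probe gave 0.25 (adjusted p = 0.0638). Against the WT of the total line 9 were higher, beside 6660 of all 25407 genes. Nfil3 gave 0.59 against the WT of the ChREBPβ line (adjusted p = 0.0690). It was called without replicate 2, 6 or 7 of the WT of the ChREBPβ line or replicate 4 of the KO (adjusted p of 0.0306 to 0.0445). All 6 red blood cell genes were higher than in the WT of the ChREBPβ line (median 0.85), beside 16.5% higher over all genes, and none was called against the WT of the total line. Alas2 and Hbb-b1 differed by 1.02 and 0.98, and the globin genes are near-identical copies. Both calls were lost with the slide as a fixed block (adjusted p = 0.122 and 0.197), and that of Hbb-b1 also with the covariates (adjusted p = 0.0544). Skeletal muscle genes ranged widely within each group, with a mean log2 intensity of 6.64 to 12.61 in the KO arrays and 6.47 to 11.52 in the WT of the ChREBPβ line, and none of 16 was called (median 1.06; Actn3 1.37 and Pvalb 1.31, adjusted p = 0.457 and 0.519). None of 8 epithelial genes was called against either reference (Krt18 -0.68 and Krt14 0.39 against the WT of the ChREBPβ line, adjusted p = 0.532 and 0.316).

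Genes called against the WT of the total line alone give the other side. The leading rises with separate arrays included Rgs7bp, Kcnj14, Crtac1 and Kcne1l, 2.33 to 2.87 higher than in the WT of the total line, and their differences from the WT of the ChREBPβ line ran from -0.19 to 0.63 (adjusted p of 0.0509 to 0.755). Rgs7bp, just outside the threshold, was called with scaling to the 75th percentile (adjusted p = 0.0427) and without replicate 1 or 4 of the WT of the ChREBPβ line or replicate 7 of the KO (adjusted p of 0.0138 to 0.0487). The 5 leading falls were Ucp1, Acot11, Ccl19, Cd5l, a macrophage secreted protein, and Myo5b, a motor of vesicle transport. Ucp1 is listed only as a description, since the WT of the ChREBPβ line was characterised by its low Ucp1. For Cd5l and Myo5b the differences were -2.58 and -2.33 from the WT of the total line and -0.49 and -0.36 from the WT of the ChREBPβ line (adjusted p = 0.471 and 0.109).

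Lastly, genes that could mark the strain background or the scaling were read. Within 10 Mb of Mlxipl, 102 of 286 genes (35.7%) were called against the WT of the ChREBPβ line, beside 32.3% elsewhere, and 55 (19.2%) were called in the same direction against both references, beside 13.8% elsewhere, 35 of them higher and 20 lower. Of 6 genes that differ between C57BL/6 substrains, Ide was called higher (0.64 ± 0.10, adjusted p = 3.07e-05) and Nnt, the mitochondrial transhydrogenase, lower (-0.63 ± 0.09, adjusted p = 1.32e-05) than in the WT of the ChREBPβ line, each also against the WT of the total line (0.80 and -0.29). The share called against the WT of the ChREBPβ line was 33.3% of the 6, near the 32.2% of all genes. Nnt was at 9.17 to 9.68 in the KO, well above background on all 7 arrays, and at 9.91 to 10.25 in the WT of the ChREBPβ line. Cyfip2 gave 0.80 (adjusted p = 0.114), and was called without replicate 1 or 7 of the KO (adjusted p = 0.0399 and 0.0420). With the mean lymphocyte and skeletal muscle levels as covariates, Cyfip2 was called lower instead (-0.86, adjusted p = 0.000916). Entpd4 gave -0.19 (adjusted p = 0.0728), and was called without replicate 7 of the KO (adjusted p = 0.0307). Of 9 reference genes, Gusb and Ppia were lower than in the WT of the ChREBPβ line (22.2% called, beside 32.2% of all genes), by 0.34 (adjusted p = 0.00268) and 0.20 (adjusted p = 0.0179). Dimmer probes of Gusb and Ppia gave -0.09 and -0.04 (adjusted p = 0.414 and 0.639). For Ppia the difference turned to 0.05 and 0.06 when arrays were scaled to their 75th percentile.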

How the data were processed

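RNA of 26 SCWAT samples was hybridised by the authors to 1-colour Agilent mouse arrays and read with Agilent Feature Extraction (10.10.1.1, per the file headers). The deposited scanner intensities hold 59305 non-control spots per array. Median spot intensity was used after a filter rescaled here from the one in the methods, which was set for another number of arrays: spots had to be found, significant and clearly over background on 21 or more arrays, or on 75% of a group's arrays. Outlier spots (97 values) were left out, log2 values were quantile normalized and spots of a probe were replaced by their median, giving 38832 probes. limma (3.58.1, R 4.3.3) fitted 1 mean per group over all 26 arrays (22 residual degrees of freedom), and p-values were Benjamini-Hochberg adjusted over all probes. A gene was read at its brightest probe, and for some named genes a dimmer probe was not called, which is not given in every case. Of 25407 gene names, 17356 were in the gene table used (GRCm38.p6), and older symbols were matched through it. Probe positions are mm9, and exons or UTRs in mm9 were not analysed here. The deposited table of log2 values normalized by the authors was an alternative. Each array is 1 mouse; the number of arrays limits the precision. The members, the gene lists and the rule for named genes were chosen with earlier results of these data known: Mlxipl; the 10 largest rises and falls called against both references with separate arrays; the 5 largest of each kind called against 1 reference; and up to 6 members of each list. List members are described by counts and medians without a set test. The fit was tested on simulated data. Some genes that the rule chose are not reported here.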

Additional observations from a re-analysis of the deposited data

Results flagged for a closer look

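In some groups of 7 arrays, 1 array lay far from the others by Dixon's criterion, which chance alone meets in about 1 group in 20. It was met in 27 of 363 combinations of a named gene and a group (7.44%) and in 3 of 69 combinations of a list mean and a group (4.35%). All values are log2 intensities.

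In the KO, replicate 7 had the highest value of Adgre1 (10.45), Cyp1a1 (8.51), Dio2 (11.80), Krt18 (11.38), Pkm (15.69) and Plin2 (16.28). Replicate 8 stood out in Slc2a5 at 7.91, with the next array at 5.49. Replicate 5 was highest in Gckr (6.11) and Gusb (11.38) and lowest in Fndc5 (8.35), and replicate 2 was lowest in Grb14 (9.62) and Npr3 (9.43).

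In the WT of the ChREBPβ line, replicate 2 was highest in Dio2 (9.36), Insig1 (12.18) and Nnt (10.25) and lowest in Nnat (10.34) and Ntrk3 (8.18). Replicate 8 was highest in Fcmr (7.41) and Ly6d (9.11) and lowest in Crtac1 (7.26) and Marco (7.07). Replicate 3 was highest in Fcgr1 (11.70), replicate 7 in Hmgcs1 (15.87) and replicate 6 in the mean of the C57BL/6 substrain genes (9.99).

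In the WT of the total line, replicate 6 was highest in Cyp2a5 (10.09) and Krt18 (12.11), and in the means of the Cyp2b and xenobiotic response genes (9.30) and of the epithelial genes (7.64). Replicate 1 was highest in Foxo6 (6.89), and replicate 8 was lowest in Thrsp (17.66).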

How the results depend on the processing

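Of 125 genes chosen by the rule for named genes, 100 kept their direction and their side of the threshold in every alternative that gave them a value. These were 14 alternatives and the leaving out of each of the 14 arrays. Some probes had no value under some of the 14 alternatives. That of Slc2a5, for example, was not tested where all arrays had to be above background. With the mean lymphocyte and skeletal muscle levels of each array as covariates, Ccl19 turned to -1.001 (adjusted p = 0.0195) and Cyfip2 to -0.86 (adjusted p = 0.000916). Ccl21a turned to -0.12 and was not called (adjusted p = 0.920). Ppia turned to 0.0507 with scaling to the 75th percentile and to 0.0615 with the processed signal.

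The counts of genes called against the WT of the ChREBPβ line, in the same direction against both references and in opposite directions were 8185, 3521 and 1159. With the slide as a fixed block they were 4928, 1485 and 329, and with the added minimum change of 1.5-fold 2523, 914 and 357. The covariates gave 1842 in the same direction, of which 1603 were among the 3521, and 95 in opposite directions. Probes well above background on all arrays gave 625 in opposite directions, with fewer genes tested (15775). Apart from the effect of fewer genes tested or a stricter rule, the cause was not tested. Leaving out 1 array gave 7208 to 8151 genes called among the 14 arrays compared, 3009 to 3892 in the same direction and 885 to 1223 in opposite directions. The deposited table gave 8241, 3544 and 1165.

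Scaling to the 75th percentile moved the median of all genes from 0.03 to 0.08. Deviations of same-numbered arrays correlated at -0.13 to 0.39 over 6 numbers, 2 of them above 0.1. No value of differently numbered arrays is given beside them, so whether replicate numbers pair the arrays was not tested. With the replicate block, 7448, 2995 and 1105 genes were called.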
